A study of Homo sapiens with 12 samples.

Results

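The genes described here are the clustered histone genes, which encode the core histones H2A, H2B, H3 and H4 and the linker histone H1. They were taken as the symbols of the deposited count table that begin with HIST1H, HIST2H, HIST3H or HIST4H and that had a mean of at least 0.5 CPM (a gene's count scaled to the size of the library) over all 12 libraries. The table lists 73 such symbols among 23615 genes, and 47 of them met the limit: 4 H1, 13 H2A, 13 H2B, 8 H3 and 9 H4 genes. By locus, 38 belong to the HIST1 cluster on chromosome 6, 6 to HIST2 and 2 to HIST3 on chromosome 1, and 1 to HIST4 on chromosome 12. HIST1H4K lay just inside the limit at 0.545 CPM, and HIST1H2BE lay just outside it at 0.324 CPM. All 47 were among the 16005 genes with enough counts to be tested.

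Clustered histone genes are transcribed mainly in S phase, when new chromatin is assembled. Most of their mRNAs end in a short stem loop in place of a poly(A) tail. The stem-loop binding protein SLBP and the U7 small nuclear RNP direct this 3′ end cleavage, so libraries selected for poly(A) RNA miss most histone mRNA, while total RNA libraries retain it. Core histones pack DNA into nucleosomes, and H1 binds the linker DNA between them.

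The RNA came from HEK293T cells, an established human embryonic kidney line. The shHuR line carried a lentiviral pLKO vector with a hairpin against HuR, the RNA-binding protein encoded by ELAVL1. The shControl line, the negative control, carried a control hairpin, and both lines had been selected with puromycin. Each line was left untreated, treated with 25 µM HNE(alkyne), an alkyne-tagged form of the lipid-derived electrophile 4-hydroxynonenal, or treated with 225 µM H2O2, an oxidant, for 18 h. Each of the 6 groups had 2 biological replicates, so each line had 6 libraries of rRNA-depleted total RNA. Each line is the product of 1 hairpin, so the line and the knockdown cannot be told apart.

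Library totals ran from 24855946 to 29907256 counts. ELAVL1 lay between 86.0 and 99.4 CPM in the shControl libraries and between 69.3 and 74.5 CPM in the shHuR libraries, with no overlap. Of 5 HEK293T markers, LIN28B, VIM, NEFL and NEFM were present in every library, and PAX2 was low at 0.14 to 0.49 CPM. The blood markers PTPRC and CD3E, the liver marker ALB and the astrocyte marker GFAP stayed under 1 CPM in every library. Replicate 2 of the HNE-treated shControl cells stood apart in several histone genes. The replicates of that group differed more than those of any other group, in the members and over all genes. Their members differed by a median of 0.26 on the log2 scale, against 0.09 to 0.17 in the other 5 pairs, and the chi-square per degree of freedom of their counts over all genes was 18.9, against 2.69 to 9.36.

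In GENCODE release 29 the transcript models of 24 members extend past the stop codon, and 18 of these hold a stem loop of 6 paired bases on either side of a loop of 4 bases. The 4 forms found are shown because this 3′ element is typical of the gene class; capitals mark the stem.
Form found in 9 members, among them HIST1H2BG, HIST1H2AE, HIST3H2A and HIST3H2BB: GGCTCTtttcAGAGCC
Form found in the H4 genes HIST1H4B, HIST1H4E, HIST1H4H, HIST1H4J and HIST4H4: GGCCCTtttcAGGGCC
Form found in HIST1H2BC, HIST1H2BD and HIST1H2BF: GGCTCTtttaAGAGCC
Form found in HIST1H2AG: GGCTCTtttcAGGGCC

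Promoters from RefSeq (GRCh38.p14) matched 37 of the 47 members. The octamer ATTTGCAT, on either strand within 250 bases upstream of the gene start, was found in 9 of 12 H2A and 7 of 10 H2B promoters and in none of the H1, H3 and H4 promoters. Among all 22114 promoters of that length 1.71% hold it. CCAAT, also on either strand, was found in all 30 matched H1, H2A, H2B and H3 promoters and in 0 of 7 H4 promoters, against 33.4% of all promoters. TATAAA, again on either strand, was found in 25 of 37, against 11.8%. A promoter of a divergent pair may thus be counted for the TATAAA of its partner. HIST1H2BC is counted, though the 150 bases shown for it hold no TATAAA. The octamer is known as the site of Oct-1, CCAAT as that of NF-Y. The 150 bases upstream of the start are shown for HIST1H2BG, whose difference between the lines was the largest of the members, for the H2A and H2B genes of 1 divergent pair that share an octamer, and for an H4 gene with none of the 3 motifs. Capitals mark the motifs on either strand, so ATGCAAAT is the octamer and ATTGG is CCAAT read on the other strand.
HIST1H2BG (H2BC8), chr6:26216689-26216838, minus strand: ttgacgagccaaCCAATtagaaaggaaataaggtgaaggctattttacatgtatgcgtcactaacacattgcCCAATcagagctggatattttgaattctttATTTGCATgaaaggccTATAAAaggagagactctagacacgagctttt
HIST1H2BC (H2BC4), chr6:26123927-26124076, minus strand: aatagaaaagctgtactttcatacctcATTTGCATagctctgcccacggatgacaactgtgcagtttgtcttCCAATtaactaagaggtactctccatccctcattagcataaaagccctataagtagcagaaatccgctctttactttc
HIST1H2AC (H2AC6), chr6:26124022-26124171, plus strand: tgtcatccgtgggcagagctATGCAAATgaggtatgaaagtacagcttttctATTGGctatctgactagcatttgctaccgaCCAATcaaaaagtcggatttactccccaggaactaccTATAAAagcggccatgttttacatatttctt
HIST1H4E (H4C5), chr6:26204460-26204609, plus strand: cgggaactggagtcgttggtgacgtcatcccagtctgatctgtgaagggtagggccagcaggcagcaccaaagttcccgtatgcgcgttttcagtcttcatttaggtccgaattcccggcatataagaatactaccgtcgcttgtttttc

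Histone genes resemble each other closely, so a read may fit several of them. The coding sequence of each gene was cut into all stretches of 75 bases, the read length, and each stretch was looked for in the transcripts of every other gene. Only exact matches in annotated transcripts counted as shared. A gene with no shared stretch may therefore still closely resemble another. Of 70 symbols with a coding sequence, 43 shared no stretch with another gene, 10 shared some but under 50%, and 17 shared 50% or more. Among the members these groups held 27, 9 and 10 genes, and HIST2H2BC, annotated as a pseudogene, was not assessed. In 4 pairs the genes had identical coding sequences: HIST1H4J with HIST1H4K, HIST2H2AA3 with HIST2H2AA4, HIST2H3A with HIST2H3C, and HIST2H4A with HIST2H4B. HIST1H4K, whose every stretch is shared, was counted at 0.545 CPM, and the 6 genes of the 3 HIST2 pairs had at most 0.159 CPM and were not members. The levels of HIST1H2AM, HIST1H2AI, HIST1H2AD, HIST1H2AK, HIST1H2BK, HIST2H2BF, HIST2H3D, HIST1H3D, HIST1H4J and HIST1H4K, which share 50% or more, are therefore uncertain. HIST1H2AD and HIST1H3D also had counts that were not whole numbers. The labels name a strand-specific kit but not the strand setting of the counting. The coding sequences of 8 members overlap an exon of another annotated gene: HIST1H2AM, HIST1H2AD, HIST1H2AK, HIST2H2AB, HIST1H2AL, HIST2H2BF, HIST1H2BN and HIST1H3D. HIST1H3J is not among the 8, since its overlap with HIST1H2AM lies outside its own coding sequence. Every shared stretch of HIST1H2AD and HIST1H3D lies in AL031777.3, an annotated gene that overlaps both. Those of HIST1H2AM all lie in HIST1H3J and those of HIST1H2AK in HIST1H2BN, which overlap them. For these members the percent shared does not measure resemblance between histone genes alone.

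**Figure D1:**
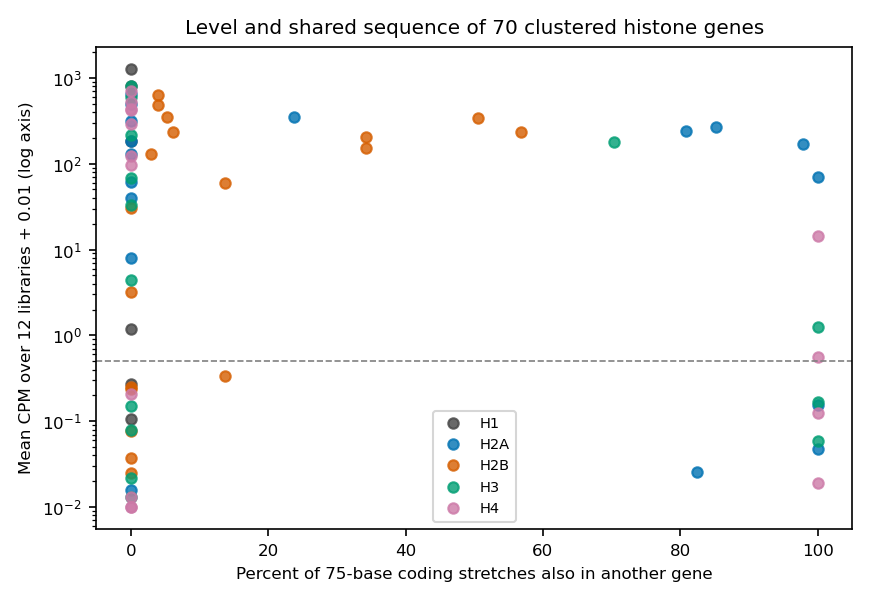
Mean level of each of 70 clustered histone genes over 12 libraries (CPM + 0.01, log axis) against the percent of its 75-base coding stretches that another gene also holds, coloured by histone class; the dashed line is the limit of 0.5 CPM. Of the 10 genes at 100%, 4 lie above the line, and the genes above 100 CPM spread from 0% to 97.8%.

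The members took 1.17% to 1.36% of the counts of a library. Summed over each class, mean CPM was 2956 for H2A, 2863 for H2B, 2592 for H4, 2251 for H1 and 1891 for H3. The H2A, H3 and H4 sums leave out the HIST2 pairs with identical coding sequences, which were counted under 0.5 CPM. How reads that fit several genes were counted is not given, so the order of the classes may depend on it. Per length the order differed. The summed FPKM (fragments scaled to gene length and library size) was highest for H4 at 14768 ± 1231 (SD, n = 12), then H2A at 10305 ± 741, H2B at 9321 ± 823, H3 at 6935 ± 432 and H1 at 4006 ± 170. The length used for the deposited FPKM is not given. HIST1H4A, with a transcript model of 312 bases, had a mean of 704 FPKM at 121 CPM, more than scaling by 312 bases alone gives. The lead of H4, the class with the shortest coding sequences, may depend on that scaling. H1 and H3 rested on few genes. The 3 most abundant members carried 99.9% of the H1 sum and 84.8% of the H3 sum, against 49.9% for H2A, 51.4% for H2B and 63.7% for H4. Those genes were HIST1H1C, HIST1H1E and HIST1H1D for H1 and HIST1H3B, HIST1H3H and HIST1H3A for H3. HIST1H1C, a linker histone gene, had the highest count share of all members, at 1338 ± 48.7 CPM (SD, n = 6) in shControl.

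The lines were compared first over all treatments, to ask which histone genes differ with the knockdown. Many H2A, H2B and H3 genes were higher in shHuR, while H1 and H4 genes showed no common direction. Of the 47 members, 24 differed at an adjusted p under 0.05 with edgeR's quasi-likelihood test, 20 higher and 4 lower in shHuR. Over all 16005 genes 29.9% differed, 14.1% higher and 15.9% lower. By class, 7 of 13 H2A genes rose and none fell, 6 of 13 H2B genes rose and 1 fell, and 5 of 8 H3 genes rose and 1 fell. In H1, 1 of 4 rose and 1 fell, and in H4 1 of 9 rose and 1 fell. The median log2 fold change was 0.13 over the members and -0.002 over all genes tested. By class it was 0.14 for H2A, 0.22 for H2B, 0.24 for H3, 0.05 for H4 and -0.07 for H1. In 12 of 47 members all 6 shHuR libraries lay above all 6 shControl libraries, which held for 5.25% of all genes; the reverse held for 0 members and 6.84% of all genes. In bulk RNA a difference in the share of cells in S phase and a difference in RNA per cell cannot be told apart.

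**Figure D2:**
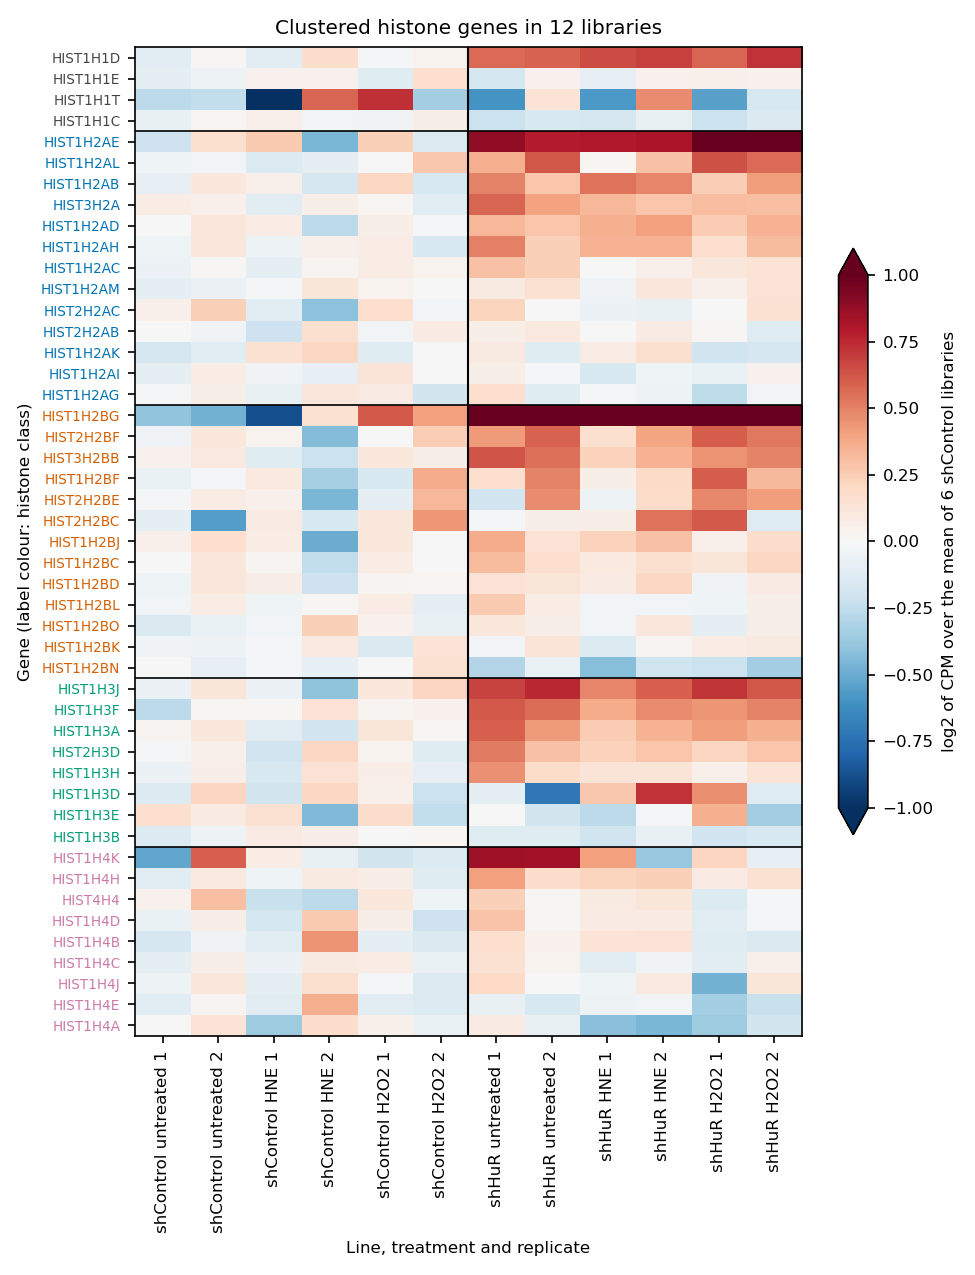
Level of the 47 clustered histone genes (rows, grouped and coloured by class) in 12 libraries (columns), as log2 of CPM over the mean of the 6 shControl libraries; colours end at -1 and 1. HIST1H1D, HIST1H2AE, HIST1H2BG, HIST1H3J and HIST1H3F are higher in all 6 shHuR libraries, and replicate 2 of the HNE-treated shControl cells is low in many H2B genes and high in HIST1H4B and HIST1H4E.

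The largest differences among the H2A and H2B genes were in a pair of scarce neighbours. HIST1H2BG, an H2B gene, had 1.00, 1.72 and 2.81 CPM as the lowest, median and highest of the shControl libraries and 3.68, 4.36 and 5.98 CPM in shHuR. The lines did not overlap, and the mean was 2.52-fold higher in shHuR (log2 fold change 1.37, SE 0.191, adjusted p = 4.57e-05). HIST1H2AE, the H2A gene that starts 332 bases away in the opposite direction (between start codons, GRCh38), had 4.01, 5.58 and 6.60 CPM in shControl and 9.50, 9.94 and 12.3 CPM in shHuR. Here too every shHuR library lay above every shControl library, at 1.90-fold (log2 fold change 0.92, SE 0.113, adjusted p = 1.34e-05). Neither gene shares a 75-base stretch with another gene.

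More abundant H2A genes rose by less. HIST3H2A, in the small HIST3 locus, ran from 148.4 to 169.2 CPM with a median of 164.1 in shControl and from 194.7 to 240.4 with a median of 199.97 in shHuR. The libraries did not overlap (log2 fold change 0.37, SE 0.0440, adjusted p = 9.21e-06). HIST1H2AH, among the 3 most abundant H2A genes, had 435.3 ± 29.7 CPM in shControl and 544.8 ± 44.0 CPM in shHuR (SD, n = 6), and rose by 0.32 on the log2 scale with no overlap. HIST1H2AB at 0.41 and HIST1H2AD at 0.33 on that scale did not overlap either, while HIST1H2AL at 0.43 and HIST1H2AC at 0.14 overlapped. The most abundant H2A gene, HIST1H2AG, had a median of 658.6 CPM in shControl and 631.4 in shHuR and was not called (log2 fold change -0.05, adjusted p = 0.589). HIST2H2AC, also among the 3 most abundant, had a log2 fold change of 0.05 and was not called.

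Among H2B genes HIST3H2BB, the partner of HIST3H2A, ran from 148.6 to 185.2 CPM (median 178.2) in shControl and from 202.2 to 266.9 CPM (median 239.0) in shHuR. The groups were separate, and the rise was 0.46 on the log2 scale (SE 0.0396, adjusted p = 2.91e-07). HIST2H2BF rose by the same amount, 0.46, from a mean of 197.5 CPM to 271.3 CPM, but its libraries overlapped and 56.8% of its coding stretches lie in another gene. Smaller rises were called for HIST1H2BF (0.32), HIST1H2BJ (0.22) and HIST1H2BC (0.18), each with overlapping libraries. HIST1H2BJ, the most abundant H2B gene, had 417.8, 615.1 and 663.1 CPM in shControl and 612.0, 679.3 and 761.2 CPM in shHuR. Its lowest shControl value came from HNE replicate 2, and its adjusted p was 0.0484. HIST1H2BN went the other way, from 65.2 ± 3.95 to 54.7 ± 4.75 CPM (log2 fold change -0.25, adjusted p = 0.00311). HIST1H2BD, among the 3 most abundant, was not called at 0.10.

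H3 genes held the highest share of calls. HIST1H3J ran from 40.4 to 61.8 CPM (median 54.4) in shControl and from 75.0 to 89.8 CPM (median 83.7) in shHuR. No library overlapped, and the rise on the log2 scale was 0.65 with an SE of 0.0612 (adjusted p = 7.29e-07). HIST1H3F rose by 0.50, from 27.1 ± 2.42 to 38.2 ± 2.27 CPM, and HIST1H3A by 0.40, from 184.5 ± 15.2 to 244.1 ± 20.2 CPM (SD, n = 6), both without overlap. HIST2H3D (0.31) did not overlap but shares 70.3% of its stretches, and HIST1H3H (0.18) overlapped. The most abundant H3 gene, HIST1H3B, fell by 0.14 (adjusted p = 0.0115), from 838.2 ± 46.3 to 759.8 ± 25.7 CPM. So 5 rises stood beside a fall of the most abundant gene.

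Within H1, the 3 abundant genes went different ways. HIST1H1D had 132.2, 143.1 and 161.8 CPM as the lowest, median and highest in shControl and 212.8, 220.6 and 236.1 CPM in shHuR. It was 1.55-fold higher with no overlap, and its adjusted p of 4.37e-08 was the smallest of the members (log2 fold change 0.64, SE 0.0468). HIST1H1C, at 1271.2, 1335.1 and 1390.4 CPM in shControl and 1151.2, 1196.4 and 1271.9 CPM in shHuR, fell by 0.16 (adjusted p = 0.00254). Its highest shHuR library was level with its lowest shControl library. HIST1H1E had a log2 fold change of -0.01 (adjusted p = 0.894).

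Most H4 genes were not called. HIST1H4C, the most abundant, had a median of 705.8 CPM in shControl and 705.9 CPM in shHuR, and its change on the log2 scale was -0.0002 (SE 0.0485). HIST1H4H rose by 0.22 (SE 0.0524, adjusted p = 0.00497), from 268.8 ± 18.8 to 312.4 ± 24.6 CPM, and its libraries overlapped. HIST1H4A fell by 0.23 (adjusted p = 0.0278), from 130.4 ± 16.4 to 111.9 ± 16.9 CPM (SD, n = 6). HIST1H4E at -0.14 and HIST1H4D at 0.06 did not pass the test.

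**Figure D3:**
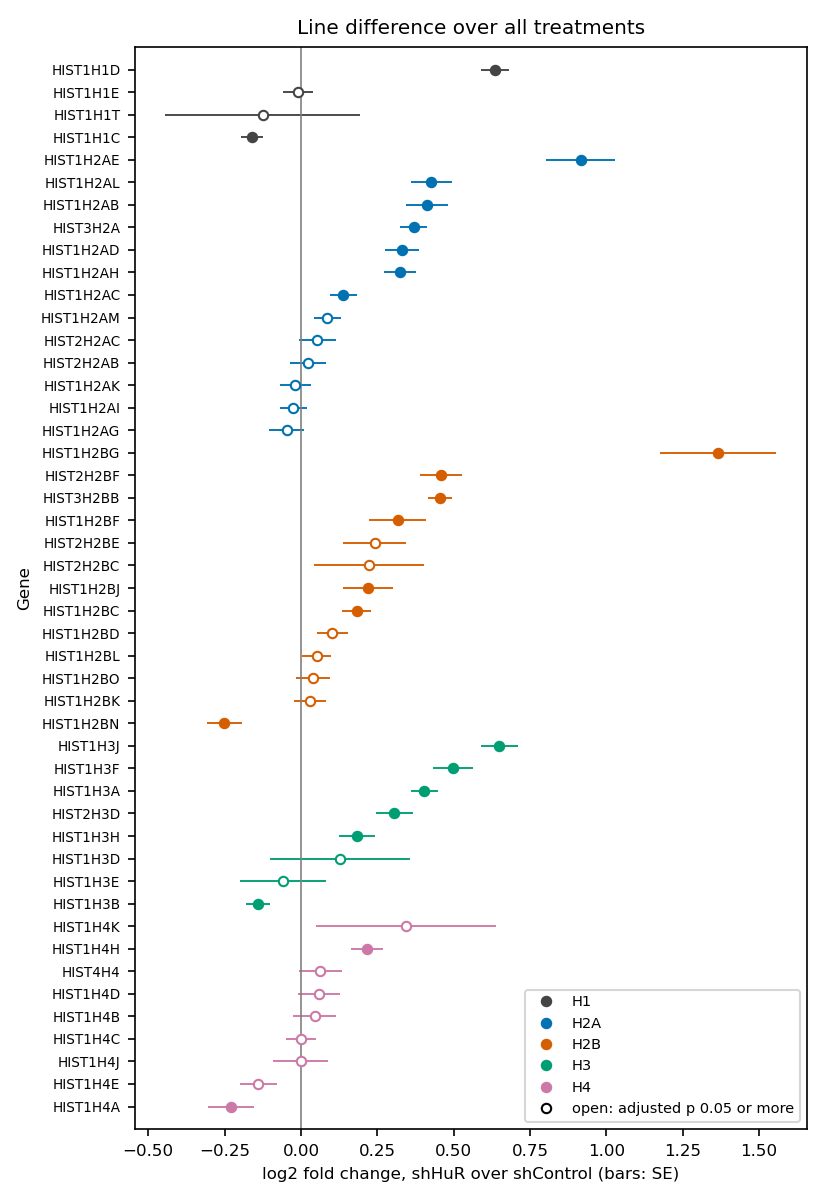
Log2 fold change of each clustered histone gene, shHuR over shControl over all treatments, with its SE, coloured by class; filled points have an adjusted p under 0.05. HIST1H2BG at 1.37 and HIST1H2AE at 0.92 lie farthest to the right, and the 4 filled points left of 0 are HIST1H2BN, HIST1H4A, HIST1H1C and HIST1H3B.

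Of the 24 calls, 19 held with each of the 12 libraries left out in turn, and 16 held in every setting tried. HIST1H2BF, HIST1H4A, HIST1H2BJ, HIST1H3H and HIST1H2AC each lost the call without at least 1 library. With limma on log2(FPKM + 1) 17 members were higher and 1, HIST1H2BN, was lower, so the falls of HIST1H1C, HIST1H3B and HIST1H4A were not called there. Calls were made on both sides of the limit of shared sequence: 17 of 36 members that share under 50% of their stretches were higher and 4 lower, and 3 of the 10 that share 50% or more were higher and 0 lower. Among the 25 members with no shared stretch and no other gene's exon over their coding sequence, 13 were higher and 3 lower. These 25 include HIST1H3J, which overlaps HIST1H2AM outside its own coding sequence.

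Summed by class, the lines differed by less than the most changed single genes did. The H2B sum was 13.2% higher in shHuR (3039.9 ± 122.2 against 2685.6 ± 178.3 CPM; SD, n = 6), the H2A sum 10.0% higher and the H3 sum 7.49% higher. The H4 sum differed by 0.366% and the H1 sum by -3.00%. All members together had 12909.7 ± 511.6 CPM in shHuR and 12195.7 ± 332.5 CPM in shControl, which is 5.85% higher. With the treatments pooled, the 6 libraries of the lines overlapped in every class, in H2B by less than 1 CPM (2834.8 as the lowest in shHuR and 2835.4 as the highest in shControl). Within each treatment the 2 shHuR libraries lay above the 2 shControl libraries in the H2B sum, which was 14.5% higher in untreated cells, 16.5% higher with HNE and 8.90% higher with H2O2. The H2A sum was separate in untreated cells (13.1% higher) and with HNE (10.6%) and overlapped with H2O2 (6.38%). The H3 sum was separate in untreated cells alone (16.4% higher), and its differences with HNE and H2O2 were 3.35% and 3.00%. The H4 and H1 sums overlapped in all 3 treatments, with differences of 7.40%, -3.38% and -2.77% for H4 and -2.57%, -3.09% and -3.31% for H1 in untreated, HNE-treated and H2O2-treated cells. With 1 library of the 2 groups left out, the H2B difference with HNE ran from 8.19% to 26.1%. The lowest of these values came without replicate 2 of the HNE-treated shControl cells. In untreated cells the H2A difference ran from 6.76% to 19.4% and the H3 difference from 11.0% to 21.7%. Both were lowest without replicate 1 of the shHuR cells. These sums are descriptions with no test.

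**Figure D4:**
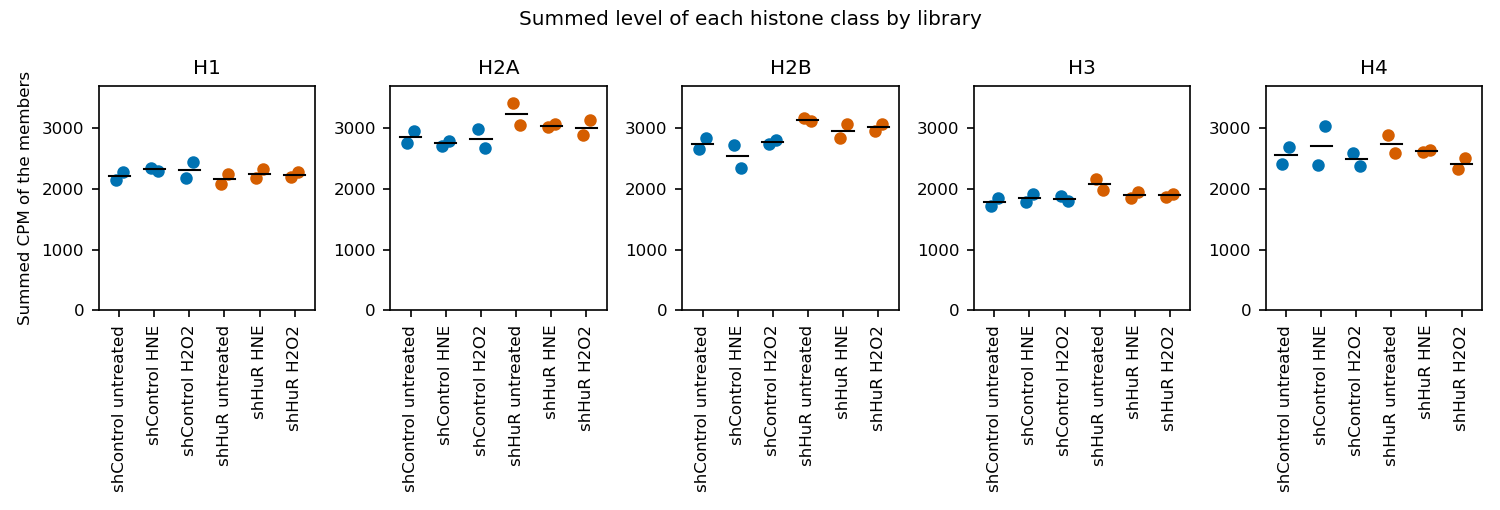
Summed CPM of the members of each histone class in 12 libraries, by line and treatment (blue, shControl; orange, shHuR); points are libraries and bars are means of 2 replicates. The H2B sums of shHuR lie at 2835 CPM or above in every library, and the H4 sum of 1 HNE-treated shControl library reaches 3042 CPM.

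The H4 sum also moved with the share of counts in 436 genes for short structural RNAs (names in SNOR, SCARNA, RNU, RN7S, VTRNA or SNAR, with RMRP and RPPH1), which was 3.74% to 4.84%. For the H4 sum the correlation over 12 libraries was Pearson's r = 0.86 (permutation p = 0.00062, adjusted p = 0.0093) and Spearman's rho = 0.96 (p = 2.0e-05, the smallest that the permutations can give; adjusted p = 0.0003), with adjustment over 15 relations. Without the 2 libraries farthest from the median share, which are those with the highest shares, r was 0.89. Within shHuR r was 0.98 (n = 6, exact permutation p = 0.00278, adjusted p = 0.0208), and within shControl it was 0.80 (n = 6, exact permutation p = 0.0639, adjusted p = 0.143). Over 12 libraries r was 0.56 for H2A, 0.58 for H3, -0.01 for H2B and -0.37 for H1, and none of these 4 passed the adjustment. The relation was examined after the values had been seen, so these p-values cannot serve as a test of it. Its part in the class differences was not tested.

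Within single treatments 16 of the 24 genes called over all treatments were called at least once. In untreated cells 13 members were higher in shHuR and 0 lower, against 7.98% of all genes called (3.5% higher, 4.48% lower). With HNE 13 were higher and 0 lower, against 8.27% (3.24% higher, 5.04% lower). With H2O2 8 were higher and 1, HIST1H2BN, was lower, against 7.19% (2.52% higher, 4.67% lower). Scaling by library totals alone gave 9 higher and 0 lower with H2O2. HIST1H1D, HIST1H2AE, HIST1H3A, HIST1H3F, HIST1H3J, HIST3H2A and HIST3H2BB were called in all 3 treatments. The other 8 of the 24 were called in no single treatment: the rises of HIST1H2BC, HIST1H2BF, HIST1H2BJ, HIST1H3H and HIST1H4H and the falls of HIST1H1C, HIST1H3B and HIST1H4A. HIST4H4 was called with HNE alone (log2 fold change 0.35, adjusted p = 0.0401) and not over all treatments. Each of these comparisons has 2 libraries a group. With 1 of them left out, the remaining library of its group is assumed to vary like the other groups, whose spread the fit then uses. Leaving out 1 of those libraries gave 5 to 8 calls in untreated cells and 3 or 4 when an HNE-treated shHuR library was dropped. With H2O2 it gave 2 or 3 calls without either shHuR library and 5 without replicate 1 of the shControl cells. Without replicate 2 of the HNE-treated shControl cells, 19 members were called in untreated cells, 9 with HNE and 15 with H2O2. Without replicate 1 of that group, 14 were called with H2O2.

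HIST1H2BG showed how the line difference stood in each treatment. In untreated cells its mean was 1.36 ± 0.0515 CPM in shControl and 5.23 ± 1.06 CPM in shHuR (SD, n = 2), so that the line difference was 1.94 on the log2 scale (adjusted p = 0.00167). With HNE the means were 1.52 ± 0.738 and 3.96 ± 0.398 CPM, a log2 fold change of 1.40 (adjusted p = 0.0119). With H2O2 they were 2.63 ± 0.254 and 4.68 ± 0.749 CPM, a log2 fold change of 0.83 that was not called. The shControl level with H2O2 lay above the untreated level in both replicates. The difference between the line effects with and without H2O2 was -1.10 on the log2 scale (SE 0.404) and did not pass the adjustment over all genes with edgeR. HIST1H1D, in contrast, kept log2 fold changes of 0.63, 0.63 and 0.65 in untreated, HNE-treated and H2O2-treated cells.

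The treatments were compared with untreated cells of the same line, to ask whether electrophile or oxidant stress moves histone mRNA. No member was called in any of these comparisons. With HNE 0 of 47 were called in shControl (0.0187% of all genes were) and 0 in shHuR (0.075%), and at an unadjusted p under 0.05 there were 10 and 8 members. With H2O2 0 were called in either line (0% of all genes in both), with 1 member in shControl and 4 in shHuR at an unadjusted p under 0.05. Averaged over both lines, 0 members were called with HNE (0.247% of all genes were) and 0 with H2O2 (0%), with 11 and 5 at an unadjusted p under 0.05. For the difference in response between the lines 0 members and 0% of all genes were called for HNE and for H2O2, with 4 and 3 at an unadjusted p under 0.05. The percentages of all genes given above are at an adjusted p under 0.05. They are not to be set beside the counts of members at an unadjusted p under 0.05. The untreated libraries serve both treatment comparisons. Other tools changed the HNE counts, and DESeq2 called 2 members in shControl (HIST2H2AC and HIST4H4), 1 in shHuR (HIST3H2BB) and 3 over both lines (HIST1H3A, HIST2H2AC and HIST3H2BB), all lower with HNE. Limma on FPKM called 0 in each. Without replicate 1 of the HNE-treated shControl cells, which leaves the replicate that stood apart as the sole library of its group, 11 members were called in shControl, 3 higher and 8 lower; without replicate 2, 0 were.

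HIST3H2BB came closest to the threshold. Over both lines its log2 fold change with HNE was -0.27 (SE 0.0529, adjusted p = 0.0601). In shControl it had 180.7 ± 5.19 CPM untreated and 153.7 ± 7.19 CPM with HNE (SD, n = 2), and in shHuR 259.5 ± 10.4 and 210.8 ± 12.2 CPM. In both lines the treated and untreated replicates were separate. HIST1H3A had the next smallest p, at -0.21 (adjusted p = 0.153). In shControl cells HIST4H4 (-0.42, adjusted p = 0.179) and HIST1H2AK (0.32, adjusted p = 0.220) had the smallest p-values, and in shHuR cells HIST3H2BB (-0.30, adjusted p = 0.1296) and HIST1H2AC (-0.24, adjusted p = 0.223). For the difference in HNE response between the lines they were HIST4H4 (0.39) and HIST1H3F (-0.36), both with an adjusted p of 0.712.

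With H2O2 the smallest p-values belonged to HIST1H2BG (0.95) and HIST2H2BC (0.59) in shControl and to HIST3H2A (-0.19) and HIST1H3H (-0.23) in shHuR. Over both lines they belonged to HIST3H2A (-0.15) and HIST1H4A (-0.17), with an adjusted p of 0.8996 for each. For the difference in H2O2 response HIST1H2BG was followed by HIST1H2AC at -0.22. All 9 H4 genes had a log2 fold change below 0 with H2O2 over both lines, with a median of -0.14, and none passed the adjustment; 4 of 9 had an unadjusted p under 0.05, against 5.45% of all genes. The H4 sum was 2419.5 and 2692.7 CPM in the untreated and 2599.3 and 2378.7 CPM in the H2O2-treated shControl libraries, which overlap. In shHuR it was 2895.9 and 2594.5 CPM untreated and 2334.5 and 2505.6 CPM with H2O2, which do not. The share of short structural RNAs in those shHuR libraries was 4.84% and 4.14% untreated and 3.74% and 4.12% with H2O2, and its part in the H4 difference was not tested. Over both lines the H4 sum was 7.40% lower with H2O2, and without replicate 1 of the untreated shHuR cells it was 4.45% lower. Such a separation was not particular to H4. In shHuR the H2B and H3 sums also lay below untreated without overlap, by -4.04% and -8.82% with H2O2. With HNE these differences were -5.99% and -8.10%, again without overlap. In shControl the H2B and H3 sums overlapped with untreated in both treatments.

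**Figure D5:**
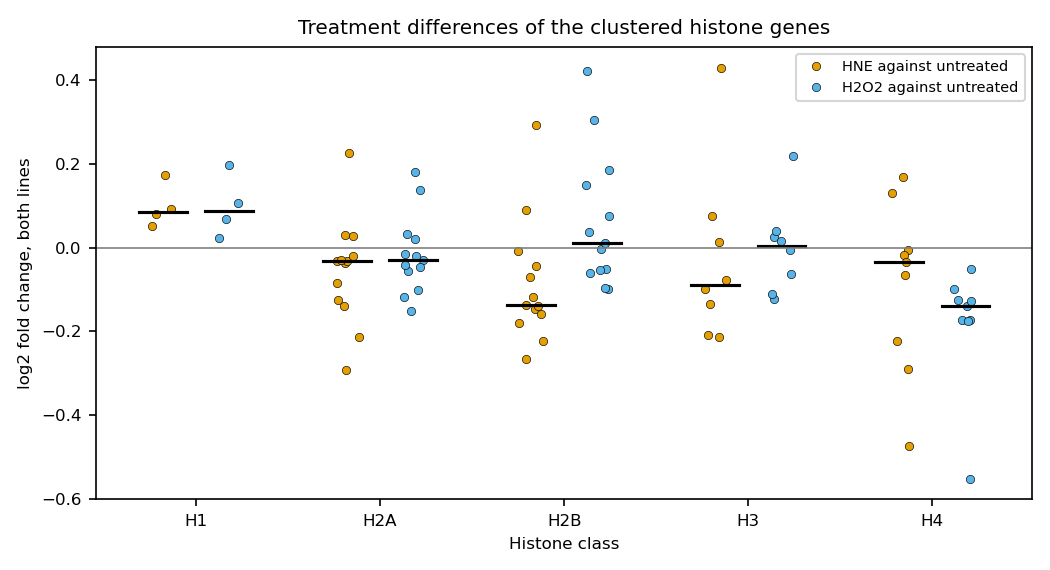
Log2 fold change of the 47 clustered histone genes with HNE (orange) and with H2O2 (blue) against untreated cells, over both lines, by histone class; points are genes and bars are class medians. The 9 H4 genes all lie below 0 with H2O2, the H2B median with HNE is -0.14, and no gene has an adjusted p under 0.05.

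H2A and H2B genes often lie head to head with a shared promoter region. In GENCODE release 29, 10 such pairs had both genes among the members, with start codons 304 to 335 bases apart. Both genes differed between the lines, in the same direction, in 4 pairs: HIST1H2AE with HIST1H2BG, HIST1H2AD with HIST1H2BF, HIST1H2AC with HIST1H2BC, and HIST3H2A with HIST3H2BB. In 3 pairs 1 gene was called and in 3 neither was. HIST1H2AH at 0.32 was called while its partner HIST1H2BK at 0.03 was not, and HIST1H2BJ at 0.22 was called while HIST1H2AG at -0.05 was not. Across the 10 pairs the log2 fold changes of the partners had Pearson's r = 0.88 and Spearman's rho = 0.56, and without HIST1H2AE and HIST1H2BG r was 0.53 over 9 pairs. Pairs are not independent replicates, since all share the 12 libraries. The octamer was found in 10 of 18 promoters of members that rose, in 0 of 2 of members that fell and in 6 of 17 of members that were not called. All 16 of the promoters with the octamer are H2A or H2B promoters.

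Histone genes outside the clusters mostly encode variants with polyadenylated mRNA that do not depend on S phase. H2AFX is an exception that also makes a stem-loop mRNA, and CENPA is expressed mainly in G2. The counts that follow are of genes called between the lines over all treatments, to be read against all genes tested, of which 29.9% were called (14.1% higher, 15.9% lower). Of 11 genes outside the clusters 36.4% were called, 4 higher and 0 lower: H1F0 (a linker histone, log2 fold change 0.28), CENPA (the centromeric H3, 0.27), H2AFV (0.20) and H2AFX (0.20). Among those not called, H3F3A had 0.76 ± 1.87 CPM in shControl and 1.59 ± 1.25 CPM in shHuR (SD, n = 6). Its counts were not whole numbers, and H3F3B had 505.3 and 472.4 CPM. Why H3F3A was counted so low was not tested. The 7 clustered genes that are reported to make polyadenylated transcripts too gave 3 rises (HIST1H2BG, HIST1H2BC and HIST1H2AC) and 1 fall (HIST1H1C). Of 19 genes for histone gene transcription and mRNA processing or decay, 6 rose and 1 fell, which at 36.8% is near the share over all genes. LSM10, a protein of the U7 particle, rose by 0.46, and ZNF473, which acts with it in 3′ end cleavage, by 0.41. MIF4GD, a partner of SLBP, rose by 0.22, CSTF2T by 0.15, the decay factor UPF1 by 0.13 and CSTF2 by 0.12. LSM11, the other protein particular to U7, fell by 0.16. SLBP itself was at 128.0 ± 8.11 CPM in shControl and 123.7 ± 5.64 CPM in shHuR (SD, n = 6) and was not called (log2 fold change -0.05, adjusted p = 0.453). Of 23 S-phase genes 4 rose and 4 fell, 17.4% in each direction, which is near the shares over all genes. TK1, a thymidine kinase, rose by 0.28, the histone chaperone ASF1B by 0.26, the ribonucleotide reductase subunit RRM2 by 0.22 and CDC6 by 0.17. MCM3 fell by 0.23, PCNA by 0.21, E2F1 by 0.19 and MCM4 by 0.17. The median over the S-phase genes was -0.01.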

How the data were processed

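Per the labels' protocols, rRNA was removed from total RNA by hybridization and directional libraries were sequenced as 75-base single-end reads. The submitters' processing notes name cutadapt 1.8, TopHat2 2.1, Bowtie2 2.2, Cufflinks 2.2, Cuffnorm, Cuffdiff and GRCh37/hg19, with no role given. The authors deposited estimated counts per gene (expected counts; 701 genes have fractional values), here rounded to whole numbers. The deposited FPKM values are, by the name the authors gave them, fragments per unit of transcript length and sequencing depth. How either treats reads that fit several genes is not given in the sources used here.

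Genes were kept with edgeR 4.0.16's filterByExpr (minimum count 10), scaled with TMM (factors 0.965 to 1.03), and tested with its quasi-likelihood F-test over all genes, Benjamini-Hochberg adjusted, threshold 0.05. Line over all treatments used treatment as covariate, treatment over both lines used line, and other contrasts used 6 group means over 12 libraries, leaving 6 residual degrees of freedom. CPM errors are SD. P-values measure the spread between these cultures. A gene at 0 would allow 3 counts, for counting error only.

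The 47 members, lists and tests were chosen with earlier results of these data known. Genes named were the 3 most abundant of each class, all members called between the lines over all treatments, up to 10 called in each other comparison or the 2 with the smallest p, those at the 0.5 CPM limit, and ELAVL1. Alternatives were DESeq2 1.42.0, other scalings and filters, limma 3.58.1 on log2(FPKM + 1) or log2(FPKM + 0.1), the replicate number as a block, and each library left out. Sequences came from GENCODE 29 and RefSeq. On simulated data with 200 changed genes among 16005, the test of line over all treatments recovered 170 (45 of 66 at a log2 change of 0.5), with 11 false calls. At that change the test of line in untreated cells recovered 28 of 66, and that of the difference in HNE response 13 of 66. In the data 29.9% of genes were called for line over all treatments, a larger share than was changed in the simulation. The simulation also held no replicate that stood apart, so these rates need not hold for the data.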

Additional observations from a re-analysis of the deposited data

Results flagged for a closer look

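In 74 groups of 6 libraries (each named gene and class sum in each line), 10 had a highest or lowest library far from the rest by Dixon's test at the 95% level, and chance flags about 1 in 20 groups. Replicate 2 of the HNE-treated shControl cells was the library in 5 of them. It was the lowest shControl library for the H2B sum (2344 CPM, next 2659), HIST1H2AD (123.6 CPM, next 147.1), HIST1H2BC (273.2 CPM, next 324.6) and HIST1H2BJ (417.8 CPM, next 591.0), and the highest for HIST1H4E (697.4 CPM, next 551.9). Replicate 2 of the H2O2-treated shControl cells was highest for HIST1H2AL (40.4 CPM, next 33.6) and HIST1H2BN (72.3 CPM, next 65.5). Replicate 1 of the untreated shControl cells was lowest for HIST1H3F (22.6 CPM, next 27.2). Replicate 1 of the untreated shHuR cells was the highest shHuR library for HIST1H3H (757.0 CPM, next 627.8) and HIST2H3D (231.0 CPM, next 198.2).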

How the results depend on the processing

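The 24 calls between the lines over all treatments became 21 to 26 with a library left out. HIST1H2BJ lost its call with DESeq2, and HIST1H4A, HIST1H2BJ, HIST1H3H, HIST1H1C, HIST1H3B and HIST1H2AC lost theirs with limma on FPKM. Calls within a treatment moved more. Leaving out a library gave 5 to 19 calls in untreated cells, 3 to 16 with HNE and 2 to 15 with H2O2. Limma without a filter gave 7, 5 and 3. Testing without a filter on low counts gave 20 with HNE and 18 with H2O2. For HNE against untreated cells, DESeq2 gave 2 calls in shControl, 1 in shHuR and 3 over both lines, and no filter on low counts gave 5, 2 and 6. Leaving out a library gave 0 to 11, 0 to 1 and 0 to 2, and 0 to 2 for the difference in HNE response. The cause was not tested. No H2O2 comparison with untreated cells gained a call with a library left out.

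The HIST1H4C difference, -0.0002, turned positive with DESeq2 (0.00423), with DESeq2's scaling inside edgeR (0.00423), with totals as the only scaling (0.0221), without a filter on counts (0.00509), with a mean of at least 1 CPM (0.00154) and with limma on FPKM (0.00557 at each pseudocount). HIST1H1E turned positive with totals as the only scaling (0.0111). With a library left out HIST1H4C ranged from -0.0323 to 0.0310 and HIST1H1E from -0.0451 to 0.0232. Over 12 libraries the class log2 ratios ranged, with a library left out, from 0.11 to 0.16 for H2A, 0.14 to 0.20 for H2B, 0.07 to 0.12 for H3, -0.03 to 0.06 for H4 and -0.06 to -0.02 for H1.

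Replicate numbers recur across groups, but same-numbered libraries did not deviate together in every pair of groups: correlations over all genes ran from -0.18 to 0.22 over 15 pairs of groups, with 3 over 0.1, and over the members alone from -0.48 to 0.54, with 5 over 0.1. With the replicate block 24, 10, 10 and 8 members were called between the lines over all treatments, untreated, with HNE and with H2O2, and 0 for the treatments. Counts of a few reads limit HIST1H1T, HIST1H3D and HIST1H4K.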
